A study of Mus musculus with 3 samples.

Results

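The genes described here encode 5 families of detoxifying and lipid-metabolising enzymes: cytochrome P450 enzymes (Cyp), aldehyde dehydrogenases (Aldh), carboxylesterases (Ces), UDP-glucuronosyltransferases (Ugt) and sulfotransferases (Sult). They were chosen by name, as every probe set with a single gene symbol made of one of these stems and a number, without the cholesterol synthesis enzyme gene Cyp51. With the highest-mean probe set standing for each gene, this gave 150 of the 19935 genes on the array: 86 Cyp, 21 Aldh, 16 Ces, 11 Ugt and 16 Sult genes. Expression was measured on 3 Affymetrix arrays in NMuMG, an established epithelial cell line of mouse mammary origin. The MAFK arrays (n = 2) came from stable lines labelled clone 4 and clone 10, which carry FLAG-tagged MafK in pCAGIP, a vector with the CAG promoter and a puromycin resistance gene. The mock array (n = 1) came from cells with pCAGIP alone, and all cells were grown in puromycin. Each MAFK line is 1 clone and nothing in the labels makes mock a clonal line, so effects of the transgene and of cloning cannot be told apart. The labels do not say that the arrays stand for separate cultures, so the p-values measure only the spread between the 2 clones, and the spread of mock is unknown.

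MAFK belongs to the small MAF proteins, which lack an activation domain, and binds DNA as a homodimer or with CNC family partners such as NRF2, at sequences found in many detoxification genes. P450 enzymes insert oxygen into drugs, fatty acids, steroids and retinoids, aldehyde dehydrogenases oxidise aldehydes to acids, and carboxylesterases cleave esters and amides. Glucuronosyltransferases and sulfotransferases then attach glucuronic acid or sulfate, which makes the products easier to excrete. Most of these enzymes are best known from liver, but several, among them CYP1B1, CYP2S1, CYP4B1 and ALDH3A1, are typical of epithelia outside it.

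Most of the 150 genes lay low on these arrays. On the log2 RMA scale, in which a difference of 1 is a 2-fold difference, 114 genes (76.0%) stayed under the median of all probe set values, 6.91, on all 3 arrays, against 44.6% of all genes. The values of 62 (41.3%) were equal on all arrays, as were those of 34.3% of all genes, because the summarising step returns equal values for many probe sets. Levels of different probe sets are not comparable as amounts of RNA, and a low value does not show that a gene is silent. The 36 genes that reached the median were 17 Cyp, 13 Aldh, 3 Sult, 2 Ces genes and 1 Ugt gene, so that only the aldehyde dehydrogenases had most of their members above it.

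Few of the genes were far from mock, with differences of up to 17.4-fold in a single clone. By 2-fold or more in each clone, 2 genes lay on the higher side of mock, Cyp4b1 and Cyp2f2, and 5 on the lower side, Ces2g, Cyp2s1, Ugt2b34, Aldh7a1 and Aldh3a1. These are 1.33% and 3.33% of the 150 genes, beside 1.19% and 1.81% of all genes by the same rule. A gene is said here to rise or fall where, besides, its limma p, adjusted over all genes, was under 0.05. By that rule none rose and 1, Ugt2b34, fell, against 0.401% and 0.762% of all genes. Without adjustment, Cyp4b1 was the 1 gene on the higher side with a limma p under 0.05, and 4 on the lower side had one. Over all genes, 231 of the 237 on the higher side by the 2-fold rule and 349 of the 361 on the lower side had one. The unadjusted p therefore adds little to the fold rule. Counted without a size limit, 44 of the 150 genes (29.3%) were above mock in both clones and 20 (13.3%) below it, against 33.7% and 17.9% of all genes. The median difference over the 150 genes was 0 in each clone, as it was over all genes.

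**Figure D1:**
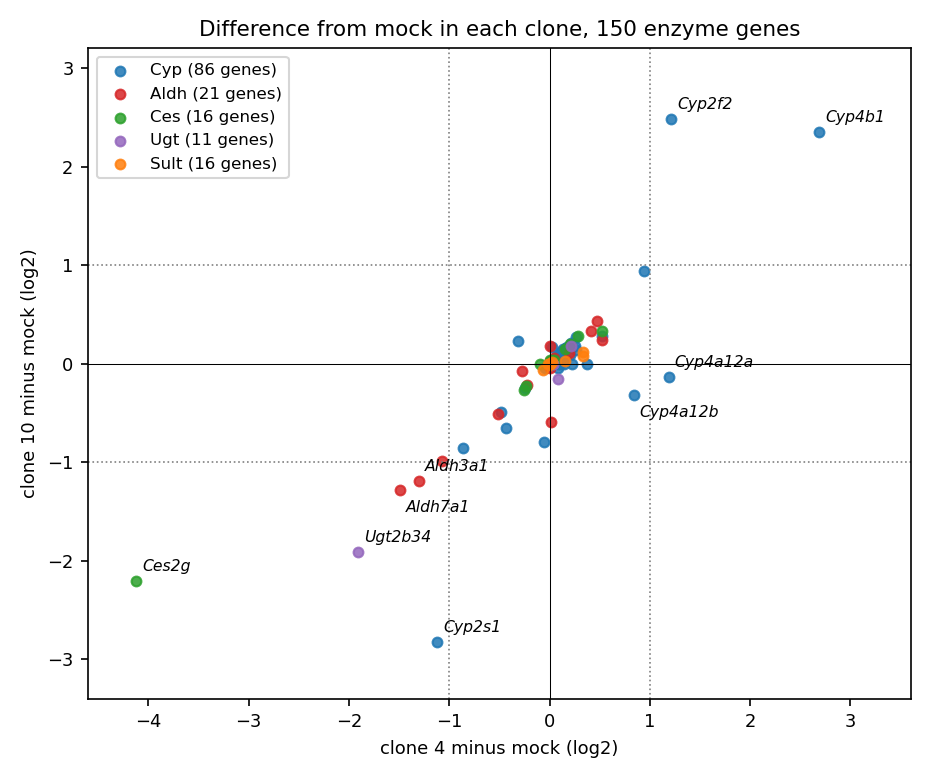
Log2 difference from mock in clone 4 (horizontal axis) and clone 10 (vertical axis) for the 150 genes, 1 point per gene, coloured by family, with dotted lines at a 2-fold difference. The 7 genes past these lines in each clone are labelled, with Cyp4a12a and Cyp4a12b, which lie above mock in clone 4 and below it in clone 10, and most points crowd at 0.

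Among the P450 enzymes, Cyp4b1 had the largest difference above mock. Its product is an enzyme of lung and other epithelia outside the liver that hydroxylates fatty acids and activates plant toxins such as 4-ipomeanol. Cyp4b1 read 10.03 in clone 4 and 9.70 in clone 10, against 7.34 in mock. Both clones lay far above mock and close to each other. The difference was 2.52 ± 0.18 (SE) on the log2 scale, or 5.75-fold, with a limma adjusted p of 0.0598, just above the threshold. Over the alternatives the adjusted p ran from 0.0370, with an intensity trend in the prior, to 0.139, with chromosome medians subtracted. It was also under the threshold with the prior estimated from all genes (0.0451), and above it after a second quantile normalization (0.0815) and with the mean of all probe sets (0.0690).

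The other Cyp4 genes, which encode hydroxylases of fatty acids and eicosanoids, were mostly low in level, and 2 of them differed between the clones. Cyp4a12a, an enzyme that makes the vasoactive lipid 20-HETE in mouse kidney, read 7.74 in clone 4 and 6.42 in clone 10, against 6.55 in mock. Its close copy Cyp4a12b read 7.20 in clone 4 and 6.04 in clone 10, against 6.36 in mock. In both genes clone 4 alone was high, while clone 10 lay slightly below mock. The sequences of these neighbouring genes are nearly the same, so signal shared between their probes cannot be told apart. Cyp4f13 and Cyp4f16, of a subfamily that inactivates leukotrienes, were lower by 0.54 and 0.49 on the log2 scale without passing (limma adjusted p = 0.217 and 0.124). The clones were equal in Cyp4f16, so its standard error came from the prior alone. Of the 16 Cyp4 genes, 9 were equal on all arrays.

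In the large families 1 to 3, which metabolise drugs and other foreign compounds, 2 genes of 54 stood apart, in opposite directions. Cyp2f2, the enzyme that activates naphthalene in mouse airway club cells, read 8.09 in clone 4 and 9.36 in clone 10, against 6.88 in mock. Both clones were above mock, by 2.31-fold in clone 4 and 5.60-fold in clone 10. Cyp2s1, an epithelial P450 that dioxin induces through the aryl hydrocarbon receptor, read 8.87 in clone 4 and 7.18 in clone 10, against 10.00 in mock. Both clones were below mock, by 2.18-fold in clone 4 and 7.06-fold in clone 10. Neither difference passed the test (limma adjusted p = 0.335 for Cyp2f2 and 0.437 for Cyp2s1), since the clones themselves were 2.42-fold and 3.24-fold apart. Clone 10 was the farther from mock in both genes.

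Cyp2s1 and Cyp2f2 belong to the same cluster of Cyp2 genes on chromosome 7. The other 9 genes measured there, of the Cyp2a, Cyp2b, Cyp2g and Cyp2t subfamilies, read between 4.75 and 6.34, and their differences from mock lay between -0.04 and 0.16 on the log2 scale. Of these 9 genes, 5 were equal on all arrays. The promoter windows of Cyp2s1 and Cyp2f2 run from 250 bases before to 50 after the start of the gene. They are shown because these genes of 1 cluster, with other measured genes between them, differ from mock in opposite directions. Capitals mark CG pairs, and the sequences are those of RefSeq on build GRCm38.p6, read along the gene's strand.
Cyp2s1: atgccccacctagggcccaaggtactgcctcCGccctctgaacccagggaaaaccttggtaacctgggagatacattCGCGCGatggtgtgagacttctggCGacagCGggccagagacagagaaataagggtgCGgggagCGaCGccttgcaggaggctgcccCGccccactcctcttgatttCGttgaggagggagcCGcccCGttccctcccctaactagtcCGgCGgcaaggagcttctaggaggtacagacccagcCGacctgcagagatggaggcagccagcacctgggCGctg
Cyp2f2: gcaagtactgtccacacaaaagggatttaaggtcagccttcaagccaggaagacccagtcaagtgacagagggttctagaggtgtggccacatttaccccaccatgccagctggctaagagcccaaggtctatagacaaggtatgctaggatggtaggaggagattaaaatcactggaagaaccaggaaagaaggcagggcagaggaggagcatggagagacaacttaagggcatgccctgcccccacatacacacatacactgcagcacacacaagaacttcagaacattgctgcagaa
The Cyp2s1 window (chr7:25816476-25816775, minus strand) held 17 CG pairs, a number that 31.4% of 32851 mouse promoter windows reach or exceed. The Cyp2f2 window (chr7:27119705-27120004, plus strand) held 0, as 5.43% of all windows do, and the median over all windows was 7.

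Other P450 genes, named for their role or level, were nearer to mock. Cyp1b1, which oxidises oestrogens, retinoids and polycyclic hydrocarbons, read 8.50 in clone 4 and 9.04 in clone 10, against 8.82 in mock, with the clones on either side of mock. Cyp1a1, the classic target of the aryl hydrocarbon receptor, read 5.56 on all 3 arrays. Cyp26b1, an enzyme that breaks down retinoic acid, read 7.38 on all arrays. Its relative Cyp26a1, of the same family, read 5.50 in both clones and 5.41 in mock. The orphan P450 gene Cyp20a1 read 9.62 in both clones and 9.86 in mock, and Cyp39a1, which hydroxylates an oxysterol on the way to bile acids, read 8.83 in clone 4, 8.75 in clone 10 and 8.57 in mock. Cyp2u1, which hydroxylates long-chain fatty acids, was singled out after its values were seen. It read 7.73 in both clones and 6.79 in mock, 1.92-fold higher in each and so just short of 2-fold (limma adjusted p = 0.0606). With equal clones, the standard error of Cyp2u1 came from the prior alone. Of the 12 sterol and steroid P450 genes, none was 2-fold apart and 11 stayed below the median of all probe sets.

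**Figure D2:**
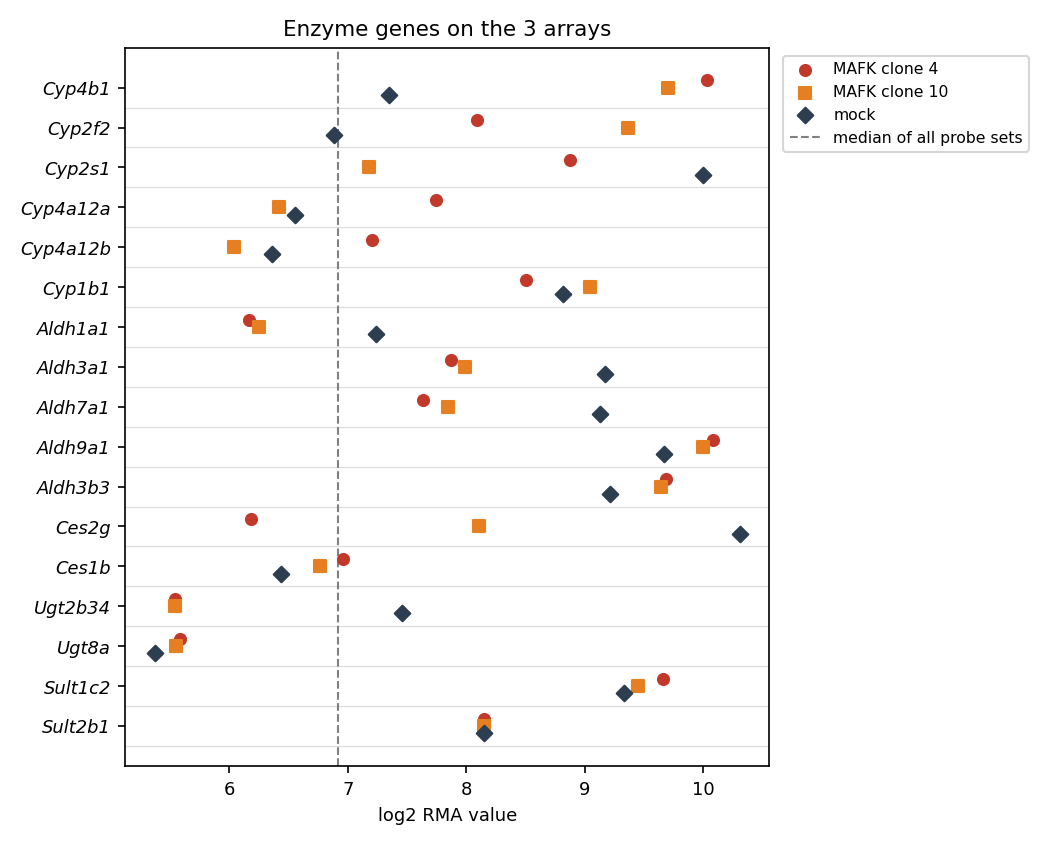
Log2 RMA values of 17 of the enzyme genes in MAFK clone 4, MAFK clone 10 and mock, 1 point per array, with the median of all probe sets as a dashed line. Cyp4b1 and Cyp2f2 lie above mock in both clones, Cyp2s1, Aldh3a1, Aldh7a1, Ces2g and Ugt2b34 below it, and Sult2b1 reads 8.15 on all 3 arrays.

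Aldehyde dehydrogenases had the largest share of genes that reached the median of all probe sets, 13 of 21 (61.9%), and the 2 genes at least 2-fold apart in each clone were lower with MAFK. Aldh7a1, which removes a toxic aldehyde of lysine breakdown, read 7.63 in clone 4 and 7.84 in clone 10, against 9.13 in mock. Aldh3a1, which oxidises aldehydes of lipid peroxidation and is abundant in the cornea, read 7.87 in clone 4 and 7.98 in clone 10, against 9.17 in mock. In both genes the clones lay close together and well under mock. Aldh7a1 was 2.62-fold lower (-1.39 ± 0.13 (SE), limma adjusted p = 0.0751) and Aldh3a1 2.37-fold lower (-1.25 ± 0.09 (SE), limma adjusted p = 0.0606), so neither passed. Over the alternatives the adjusted p ran from 0.0432 to 0.142 for Aldh7a1 and from 0.0285 to 0.126 for Aldh3a1, lowest with an intensity trend in the prior and highest with chromosome medians subtracted. Aldh3a1 was also under the threshold with the prior estimated from all genes (0.0346).

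The retinaldehyde dehydrogenases, which make retinoic acid, had 1 gene just short of the 2-fold line. Aldh1a1 read 6.17 in clone 4 and 6.25 in clone 10, against 7.23 in mock, 2.10-fold lower in clone 4 and 1.98-fold in clone 10 (limma adjusted p = 0.0663). Aldh1a2 read 5.62 on each array and Aldh1a3 read 6.80 in clone 4, 6.82 in clone 10 and 6.76 in mock. Their average differences were -1.03, 0.00 and 0.05 on the log2 scale, so Aldh1a1 alone stood apart.

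The remaining aldehyde dehydrogenase genes of higher level were closer to mock. Aldh9a1, which serves carnitine synthesis, read 10.08 in clone 4, 10.00 in clone 10 and 9.66 in mock. Aldh3b3 read 9.69 in clone 4, 9.64 in clone 10 and 9.21 in mock, and its relative Aldh3b1 read 9.39 in clone 4, 9.10 in clone 10 and 8.87 in mock. These 3 genes were above mock in both clones without passing (limma adjusted p = 0.195, 0.141 and 0.423). Of these, Aldh3b3 had 3 probe sets, and with their mean its log2 difference was 0.23, against 0.45 with the highest one. Aldh18a1, which makes the precursor of proline, read 10.33 in clone 4 and 9.72 in clone 10, against 10.32 in mock, so that clone 10 alone was lower. The mitochondrial acetaldehyde dehydrogenase gene Aldh2 read 9.00 in clone 4, 9.18 in clone 10 and 9.00 in mock, and the fatty aldehyde dehydrogenase gene Aldh3a2 read 9.58, 9.54 and 9.58 in the same order.

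Ces2g had the largest difference of all 150 genes. It belongs to the carboxylesterase 2 family, whose members cleave drug esters and acylglycerols. Ces2g read 6.19 in clone 4 and 8.11 in clone 10, against 10.31 in mock. Both clones lay far below mock, by 17.4-fold in clone 4 and 4.60-fold in clone 10, and were 3.78-fold apart from each other. The difference was -3.16 ± 0.97 (SE) on the log2 scale, and it did not pass (limma adjusted p = 0.285).

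The 16 carboxylesterase genes measured all lie on chromosome 8, where the median difference of 955 genes was 0.05 in each clone. The other 15 read between 4.80 and 6.95, with differences from mock between -0.26 and 0.52 on the log2 scale. Ces1b had the highest of these differences, with 6.95 in clone 4 and 6.76 in clone 10, against 6.43 in mock. The nearest measured family members on either side of Ces2g, Ces2f and Ces3a, differed from mock by -0.23 and 0.02 on average, and Ces4a and Ces2e by 0.04 and -0.05. None of these 4 passed the test (limma adjusted p = 0.276 for Ces2f and 1 for the other three).

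**Figure D3:**
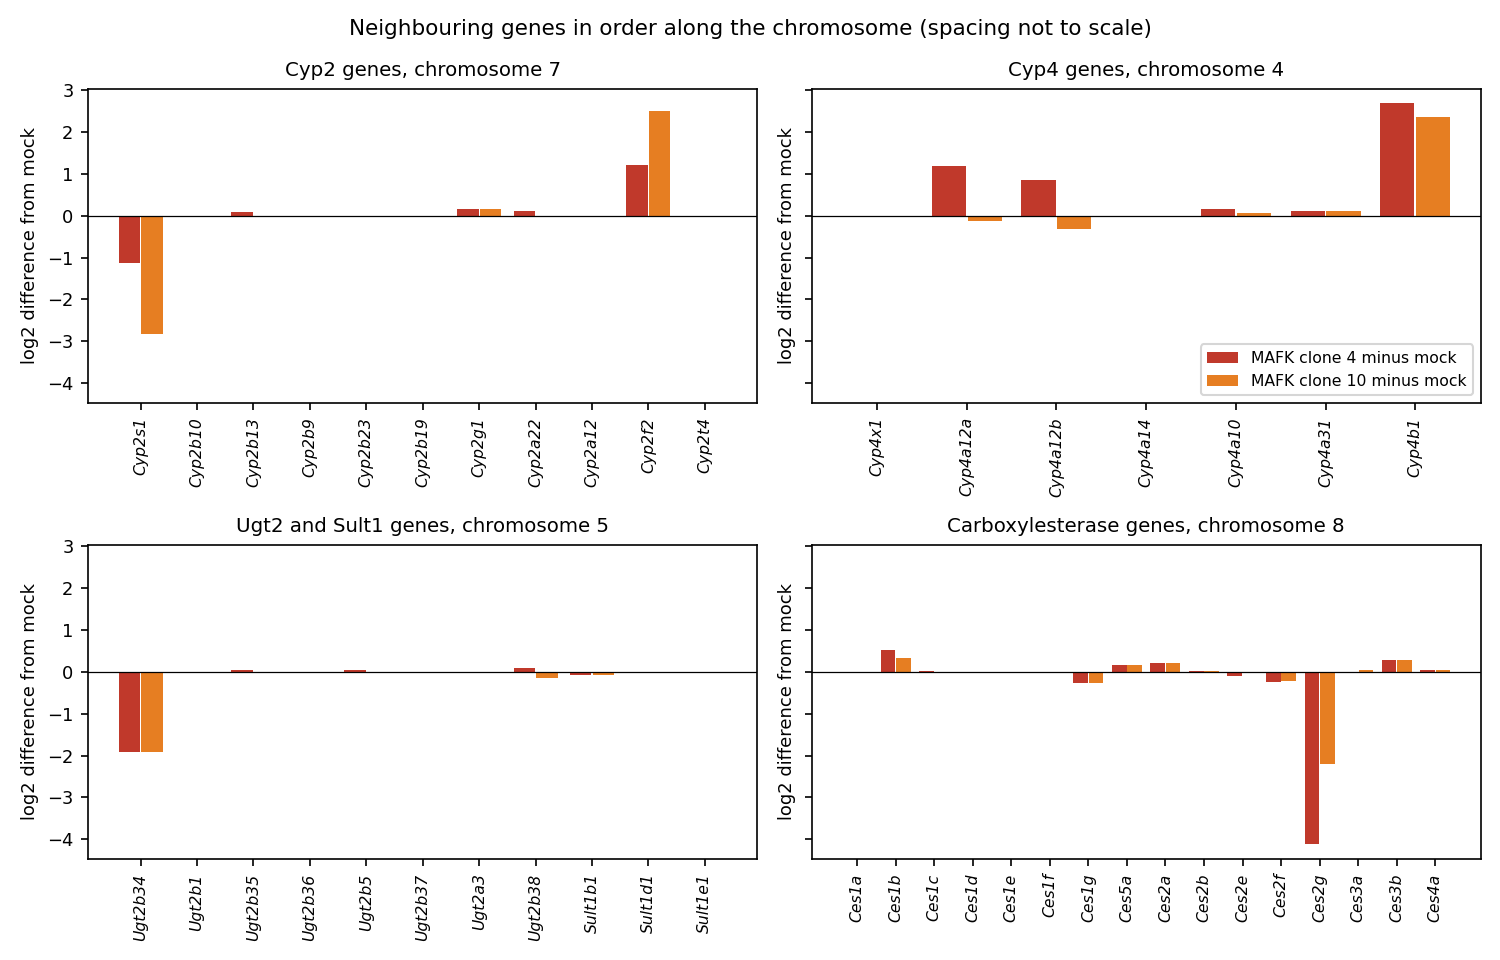
Log2 differences from mock in clone 4 and clone 10 for genes of 4 clusters, in their order along the chromosome and not to scale. In each cluster 1 or 2 genes stand apart in both clones (Cyp2s1 and Cyp2f2, Cyp4b1, Ugt2b34, Ces2g) while the bars of most neighbours are near 0.

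Among the conjugating enzymes, Ugt2b34 fell. It encodes a glucuronosyltransferase of the family that conjugates steroids and bile acids. Ugt2b34 read 5.54 in both clones, against 7.46 in mock, a difference of -1.91 ± 0.07 (SE) or 3.77-fold (limma adjusted p = 0.0311). Because the clones had the same value, their SD was 0 and the standard error came from the prior alone, which favoured passing. The adjusted p was 0.0944 when chromosome medians were subtracted, a step that also changed the prior, and Ugt2b34 passed again with the prior kept.

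The neighbours of Ugt2b34 on chromosome 5 are the other Ugt2 genes and the Sult1b1, Sult1d1 and Sult1e1 genes. All 10 of them that were measured read between 4.63 and 5.46, with differences between -0.16 and 0.08. Ugt2b37 read 5.46 on all arrays and Ugt2b38 5.26 in clone 4, 5.02 in clone 10 and 5.18 in mock. Elsewhere in the genome Ugt3a2 read 5.18 on all arrays, and Ugt8a, which makes galactosylceramide of myelin, read 5.58 in clone 4, 5.55 in clone 10 and 5.37 in mock.

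The promoter windows of Ugt2b34, which fell, and Cyp4b1, which had the largest difference above mock, are given for comparison with those above, with CG pairs in capitals.
Ugt2b34: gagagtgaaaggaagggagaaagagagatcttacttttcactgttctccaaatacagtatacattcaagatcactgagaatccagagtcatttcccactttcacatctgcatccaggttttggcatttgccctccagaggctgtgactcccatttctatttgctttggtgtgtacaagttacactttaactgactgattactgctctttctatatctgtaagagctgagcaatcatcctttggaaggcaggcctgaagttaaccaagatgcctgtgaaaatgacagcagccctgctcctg
Cyp4b1: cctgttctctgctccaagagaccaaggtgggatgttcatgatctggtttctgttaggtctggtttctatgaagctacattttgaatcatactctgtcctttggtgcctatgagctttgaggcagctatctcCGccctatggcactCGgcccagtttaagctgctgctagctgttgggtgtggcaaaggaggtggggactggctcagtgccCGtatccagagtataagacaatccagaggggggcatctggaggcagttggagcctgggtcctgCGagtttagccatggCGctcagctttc
The Ugt2b34 window (chr5:86906888-86907187, minus strand, GRCm38.p6) held 0 CG pairs and that of Cyp4b1 (chr4:115647672-115647971, minus strand) 5. These 4 windows and that of Ces2g stand for 5 of the 7 genes 2-fold apart. Those of Aldh3a1 and Aldh7a1 were not included. The 5 windows were searched on both strands for 3 motifs. These were the core of the antioxidant response element (TGACNNNGC), the core of the aryl hydrocarbon response element (GCGTG) and a half-site of the MAF recognition element (TGCTGAC). The last of these can overlap the antioxidant core. None of the 5 windows held any of them, beside 12.4%, 32.4% and 4.67% of all 32851 windows. GCGTG contains a CG pair, so the windows of Cyp2f2 and Ugt2b34, with 0 CG pairs, could not match it. At these shares, 5 windows are too few to show a lack of any of the motifs. Among 129 windows of 115 of the 150 genes the shares were 6.98%, 21.7% and 3.88%.

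The Ugt1a genes could not be counted among the 150, since their probe set carries 8 gene symbols. They are spliced from alternative first exons to shared later exons, and their products conjugate bilirubin and many phenols. The shared Ugt1a probe set read 7.64 in both clones, against 9.98 in mock, 5.06-fold lower in each clone, a value given without a test. Of 1605 probe sets that carry several symbols, 44 (2.74%) lay below mock by 2-fold or more in each clone. The other 12 probe sets shared by genes of these families differed from mock by at most 0.07 on the log2 scale.

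No sulfotransferase gene differed by 2-fold in either clone. Sult1c2 read 9.66 in clone 4, 9.45 in clone 10 and 9.33 in mock, and Sult1a1, a phenol sulfotransferase, read 7.07 in clone 4, 6.81 in clone 10 and 6.73 in mock. Sult2b1, which sulfates cholesterol, read 8.15 on all arrays. Of the 16 genes, 10 were equal on all arrays and 13 stayed below the median of all probe sets, among them Sult5a1 and Sult4a1, with differences of 0.09 and 0.02.

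The clones differed from each other in several of these genes. At least 2-fold apart between clone 10 and clone 4 were 5 of the 150 genes (3.33%), Ces2g, Cyp2s1, Cyp2f2, Cyp4a12a and Cyp4a12b, beside 0.441% of all genes. Since Cyp4a12a and Cyp4a12b may share signal between their probes, the 5 may not be separate signals. Ces2g and Cyp2f2 read higher in clone 10, and Cyp2s1, Cyp4a12a and Cyp4a12b higher in clone 4. With 1 array per clone these differences carry no test. In Ces2g, Cyp2s1 and Cyp2f2 the direction from mock was nevertheless shared by the clones.

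Genes that work with these enzymes were read from lists of electron donors, regulatory receptors, retinoid carriers and enzymes, other oxidising and hydrolysing enzymes, other conjugating enzymes with the suppliers of their cosubstrates, and efflux pumps. Of 82 genes measured, 3 rose and 3 fell, where 0.401% and 0.762% of all genes did. At least 2-fold higher in both clones were 7 and lower 8, beside 1.19% and 1.81% of all genes, and these shares also stand behind the counts of each list that follow.

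Of the 13 receptors, 2 fell. Hnf4a, the nuclear receptor that drives many liver P450, Ugt and carboxylesterase genes, read 7.15 in clone 4 and 7.05 in clone 10, against 10.13 in mock, 8.15-fold lower (limma adjusted p = 0.0293). Ahr, the aryl hydrocarbon receptor, read 8.66 in clone 4 and 8.52 in clone 10, against 10.25 in mock, 3.15-fold lower (limma adjusted p = 0.0463). In both genes the clones lay close together and far below mock. Ahr missed the threshold after a second quantile normalization (0.0513) and with the mean of all probe sets (0.0530). Nr5a2, a receptor that regulates bile acid synthesis, was higher, at 7.78 in clone 4 and 6.93 in clone 10, against 5.64 in mock, without passing (limma adjusted p = 0.231).

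Of the 26 other oxidising and hydrolysing enzymes, 1 rose and 1 fell. Ephx1, the microsomal epoxide hydrolase that acts on the epoxides made by P450 enzymes, read 8.38 in clone 4 and 8.66 in clone 10, against 11.40 in mock, and fell 7.35-fold (limma adjusted p = 0.0438). Cbr1, a carbonyl reductase, read 7.34 in clone 4 and 7.31 in clone 10, against 6.11 in mock, and rose 2.32-fold (limma adjusted p = 0.0461). In both genes the clones lay together on one side of mock. Ephx1 missed it when quantiles were normalized once more (0.0665), and with the mean of all probe sets Ephx1 (0.0513) and Cbr1 (0.0506) both did. Akr1c18, a hydroxysteroid dehydrogenase that inactivates progesterone, read 9.86 in clone 4 and 8.49 in clone 10, against 5.61 in mock, the largest difference above mock in these lists and not past the test (limma adjusted p = 0.174). Pon3, a lactonase, was 3.02-fold higher and the monoamine oxidase gene Maoa 2.17-fold lower without passing (limma adjusted p = 0.0803 and 0.0693), and the quinone reductase gene Nqo1 read 5.61 on all arrays.

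Of the 9 efflux pumps, which export conjugates and drugs, 2 rose. Abcc3, an exporter of glucuronides, read 9.67 in clone 4 and 9.60 in clone 10, against 7.08 in mock, 5.88-fold higher (limma adjusted p = 0.0293). Abcg2, an exporter of sulfated compounds and many drugs, read 8.10 in clone 4 and 8.02 in clone 10, against 6.14 in mock, 3.79-fold higher (limma adjusted p = 0.0344). In both genes the clones were close together and above mock. Abcc4, which also exports conjugates, was 3.29-fold lower without passing (limma adjusted p = 0.0774).

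**Figure D4:**
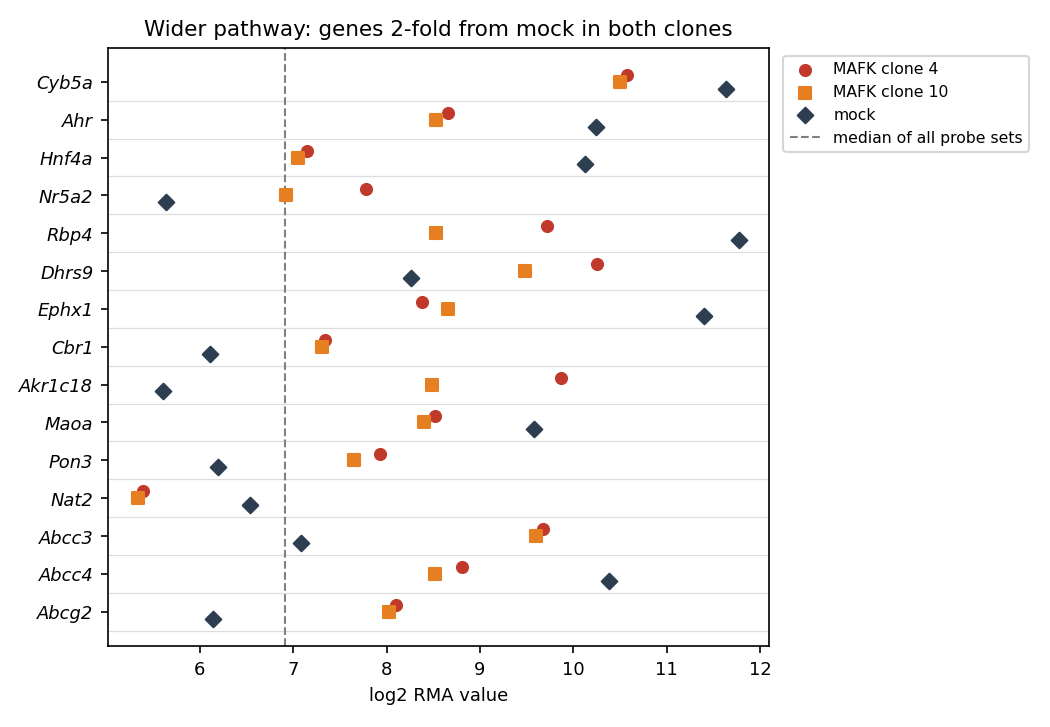
Log2 RMA values in MAFK clone 4, MAFK clone 10 and mock of the 15 genes of the wider pathway that were at least 2-fold from mock in both clones, 1 point per array, with the median of all probe sets dashed. Hnf4a, Ahr and Ephx1 lie far below mock in both clones, and Abcc3, Abcg2 and Cbr1 above it.

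No gene rose or fell among the 5 electron donors, 13 retinoid genes and 16 conjugation and cosubstrate genes. The cytochrome b5 gene Cyb5a, a helper of P450 reactions, was 2.14-fold lower (limma adjusted p = 0.0591, and 0.0240 to 0.118 over the alternatives). Rbp4, the retinol carrier of plasma, read 9.72 in clone 4 and 8.53 in clone 10, against 11.77 in mock, and Dhrs9, a retinol dehydrogenase, read 10.25 in clone 4 and 9.48 in clone 10, against 8.26 in mock, neither passing (limma adjusted p = 0.205 and 0.224). Nat2, an arylamine acetyltransferase, was 2.26-fold lower (limma adjusted p = 0.0508, and 0.0219 to 0.105 over the alternatives). The enzymes that supply the cosubstrates stayed near mock, with Ugdh, which makes UDP-glucuronic acid, at 11.91 in clone 4, 11.89 in clone 10 and 11.65 in mock. Papss1 and Papss2, which make active sulfate, differed by 0.19 and 0.03 on the log2 scale.

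Markers were read to check the cells. Of 8 epithelial markers, the keratin genes Krt8, Krt18 and Krt19 read between 10.9 and 13.7 on all arrays, while Krt7, Cldn3, Cldn4 and Cldn7 read 7.11 at most, near or below the median of all probe sets, and Epcam read 5.58 on each array. Krt18 was 2.05-fold lower than mock in clone 4 and 1.82-fold in clone 10 (limma adjusted p = 0.0972). All 5 adipocyte markers measured stayed below the median of all probe sets, as did 4 of 5 endothelial and 3 of 5 immune markers. Of 6 hepatocyte markers, Apob read 6.33 in clone 4 and 6.67 in clone 10, against 9.15 in mock. The mean of the list was 6.04 in clone 4, 6.09 in clone 10 and 6.51 in mock, but the other 5 genes differed from mock by 0.11 at most and the median difference was 0 in each clone. Albumin (Alb) read 5.85 in both clones and 5.96 in mock, below the median. Of 7 fibroblast markers Dcn was at least 2-fold lower in both clones, whereas Col1a1, Col1a2, Col3a1 and Thy1 lay above mock in both, Col1a2 by 1.81-fold in clone 4 and 1.49-fold in clone 10. The mean of that list was 6.68 in clone 4, 6.69 in clone 10 and 6.78 in mock, while its median difference was 0.19 in each clone. The part of these genes in the results above was not tested, and in bulk RNA fewer cells of a type and less RNA per cell cannot be told apart. The probe set of Mafk itself read 8.74 in clone 4, 8.59 in clone 10 and 8.49 in mock (limma adjusted p = 0.612), and whether its probes match the transgene was not analysed here.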

How the data were processed

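Each deposited value is the log2 signal of 1 probe set, and the authors used RMA according to the submitters' processing notes (version not given in the sources used here). RMA corrects background, quantile normalizes arrays and summarises probes by median polish, which over 3 arrays returned equal values in both clones for 11062 of 19935 genes (55.5%). Of 28815 probe sets, 21780 had a single symbol, brought up to date with RefSeq's GRCm38.p6 genes by Entrez number (21689 matched), and the one with the highest mean stood for each gene. Medians were 6.92 in clone 4, 6.93 in clone 10 and 6.89 in mock, and the number of arrays limits the precision.

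MAFK was compared with mock over all genes with limma 3.58.1 in R 4.3.3 (two-sided, Benjamini-Hochberg). The prior (1.93 degrees of freedom, SD 0.0694) came from the 8873 genes whose clones differed, with 1 residual degree of freedom. On simulated arrays, 200 of the 19935 genes were shifted in both clones. The rule for rose and fell recovered 69% at a shift of 1.5 on the log2 scale and 81% at 2.5. It recovered 0% at 0.5, which lies under the 2-fold rule. False calls were 0 at each size. However, genes with equal clones were kept equal in mock as well, so no such gene could be called falsely. The 0 therefore does not cover genes like Ugt2b34, whose clones were equal and differed from mock. Named were all enzyme genes 2-fold apart in both clones or between the clones, the 5 of highest mean per family and preset genes, and others as said. Members, lists and the test were chosen with earlier results of these data known. Alternatives were other priors, a second quantile normalization, a filter on low values, the mean of probe sets, chromosome medians subtracted, a 1.5-fold rule and leaving out each clone.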

Additional observations from a re-analysis of the deposited data

How the results depend on the processing

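With the limma prior estimated from all genes, 1 enzyme gene rose and 2 fell, and over all genes 128 rose and 232 fell. With an intensity trend in that prior the counts were 1 and 3, and 142 and 256 over all genes. Both priors take the equal clone values of most genes for true variances near 0. With chromosome medians subtracted, 0 enzyme genes rose and 0 fell, and over all genes the counts were 0 and 0. This step made 9822 in place of 8873 genes differ between the clones and so changed the prior. With the prior kept, an alternative added after the data were seen, 80 genes rose and 153 fell, with Ugt2b34 again the 1 enzyme gene that fell. Among the 6 other genes said to rise or fall, the adjusted p with chromosome medians subtracted ran from 0.0955 for Hnf4a and Abcc3 to 0.125 for Ephx1, with the direction kept. A second quantile normalization gave 2 enzyme genes at least 2-fold higher and 6 lower, beside 238 and 359 of all 19935 genes, and the 1.5-fold rule gave 3 and 7, beside 507 and 723. Leaving out each clone in turn gave 2 to 3 enzyme genes at least 2-fold higher and 5 to 6 lower, and over all genes 291 to 305 higher and 424 to 448 lower, values with no test since no residual degree of freedom was left. No direction of a gene said to rise or fall was reversed under any of these alternatives. No paired analysis was possible because the mock array carries no clone number.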

Other observations

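The Cyp2c genes on chromosome 19, a cluster that encodes enzymes of drug and arachidonic acid metabolism, were described here after their values were seen. All 13 measured genes read between 4.63 and 7.06, and 12 stayed below the median of all probe sets on every array. None was 2-fold apart from mock in both clones. Cyp2c55, a P450 of the mouse colon, read 5.12 in both clones and 5.98 in mock, 1.81-fold lower (limma adjusted p = 0.0686). As its clones were equal, its standard error came from the prior alone. Cyp2c37 read 7.06 in clone 4 and 6.82 in clone 10, against 6.54 in mock, a log2 difference of 0.41 ± 0.14 (SE, limma adjusted p = 0.332).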
